A study of Homo sapiens with 9 samples.

Results

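The complement components and regulators described here are 9 genes chosen by name: C3, CFB, C1R, C1S, SERPING1, CFI, CD46, CD55 and CD59. They were chosen with earlier results of these data known. All 9 were found among the 29740 gene symbols measured, and 8 of them had enough counts to be tested, of 14740 genes tested in all. C3, with 0 to 4 counts per library, did not pass the filter on low counts.

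RNA was sequenced from HMEC-1, an immortalised line of human dermal microvascular endothelial cells, in 3 libraries per group. The groups were untreated cells (CTRL), cells given 50 µM trimethylamine-N-oxide (TMAO, a metabolite that the liver forms from a product of gut bacteria) for 24H, and cells given the same dose for 48H. HMEC-1 is 1 line, and the labels do not say whether the libraries came from separate cultures, so the p-values measure the spread between these libraries, which may be technical. The study pooled its 24H and 48H controls into 1 group, so time in culture and treatment cannot be told apart.

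Total counts ran from 25205756 to 36927373 per library, and 1 count was worth between 0.029 and 0.0383 CPM (the normalised unit used throughout, counts scaled to a library of 1000000 counts after trimmed-mean normalisation). Ribosomal RNA genes took 31.5% of the counts of TMAO 24H replicate 1 and 1.64% to 7.46% elsewhere. The 11 endothelial markers were all expressed, and their summed level was 2545 to 2831 CPM in CTRL, 2562 to 2691 at 24H and 2236 to 2416 at 48H. At 48H against CTRL, 7 of the 11 passed the test as lower, beside 5.29% of all tested genes. Among the 7 were CDH5 and PECAM1 of the endothelial junction, while CLDN5 (log2 -0.15) and ESAM (0.15) did not pass. Hepatocytes and macrophages are well known sources of complement. The 6 hepatocyte markers summed to 1.09 to 2.05 CPM, and the 8 leukocyte markers to 19.6 to 23.7 CPM. Most of the hepatocyte sum was SERPINA1 (group means of 1.44 to 1.53 CPM), with ALB, APOA1, APOB, TTR and FGB at or near 0. Most of the leukocyte sum was CD68 (group means of 19.7 to 21.6 CPM), with the pan-leukocyte gene PTPRC at or near 0. The 10 fibroblast and mural markers summed to 1021 to 1181 CPM in CTRL, 1029 to 1110 at 24H and 677.9 to 743.5 at 48H, with DCN and LUM at or near 0. Of the 8 of these that were tested, COL1A1 (log2 -0.67) and COL1A2 (-1.08) passed as lower at 48H against CTRL, ACTA2 passed as higher (0.74), and RGS5 (0.20) and CSPG4 (0.01) were among the 5 that did not pass. The 6 epithelial markers summed to 628.6 to 835.2 CPM over all libraries, most of it KRT18 (group means of 558.3 to 658.8 CPM). KRT18 passed as lower at 48H against CTRL (log2 -0.24), and none of the others passed. The part of these shifts in the results below was not tested.

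Complement is a cascade of plasma proteases that marks and lyses microbes. C1r and C1s start the classical pathway, factor B (CFB) forms the alternative pathway convertase together with C3b, and C3 is the protein on which the pathways converge. C1 inhibitor (SERPING1) and factor I (CFI) restrain the cascade in fluid, while CD46, CD55 and CD59 protect the cell that carries them. Endothelial cells make several of these proteins themselves, and interferons and inflammatory cytokines are known to raise some of them.

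Promoters are shown because CFB was the only member to pass the test. RefSeq (GRCh38.p14) held 11 promoters for 6 of the 9 members, C3, C1S and SERPING1 having no entry. Each line below gives the 250 bases before the start, 5′ to 3′ on the strand of the gene, and capitals mark motif matches. CFB is followed by CFI, whose 48H libraries also lay above all controls, and by a CD59 promoter that shares a motif with CFB.
CFB, chr6:31945845-31946094 (+): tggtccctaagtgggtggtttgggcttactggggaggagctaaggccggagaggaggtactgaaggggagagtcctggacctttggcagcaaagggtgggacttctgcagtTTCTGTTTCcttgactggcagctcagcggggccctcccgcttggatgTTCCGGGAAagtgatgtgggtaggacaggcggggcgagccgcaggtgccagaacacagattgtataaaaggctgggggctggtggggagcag
CFI, chr4:109802000-109802249 (-): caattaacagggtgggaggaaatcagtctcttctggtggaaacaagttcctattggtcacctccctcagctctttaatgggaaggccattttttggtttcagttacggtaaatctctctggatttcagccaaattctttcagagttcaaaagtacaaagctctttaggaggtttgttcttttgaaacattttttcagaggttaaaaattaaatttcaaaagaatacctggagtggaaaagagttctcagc
CD59, chr11:33736480-33736729 (-): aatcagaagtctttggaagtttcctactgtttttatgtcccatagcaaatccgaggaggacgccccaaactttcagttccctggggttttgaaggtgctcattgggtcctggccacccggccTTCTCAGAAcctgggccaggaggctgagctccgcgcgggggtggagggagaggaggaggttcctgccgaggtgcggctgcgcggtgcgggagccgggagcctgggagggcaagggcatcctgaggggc

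In the CFB promoter the capitals mark TTCTGTTTC, a match on the opposite strand to the core of the interferon-stimulated response element (ISRE, GAAANNGAA) at bases -139 to -131, and TTCCGGGAA, a match to the gamma-activated site (GAS, TTCNNNGAA), at -92 to -84. Both are elements known from interferon-responsive genes. The matches did not overlap. Of the 11 member promoters 1, that of CFB, held both motifs, as did 333 of all 35116 promoters (0.948%). The pair counted is the one that the CFB promoter holds, so this share is a description and no test. In the CFI promoter no motif matched, and in the CD59 promoter the capitals mark the GAS match TTCTCAGAA at -128 to -120.

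Over the 300 bases of each promoter (250 before and 50 after the start) and both strands, ISRE matched 1 of the 11 member promoters and 8.11% of all promoters. GAS matched 4 of 11 (CFB, 1 of the C1R promoters, and a pair of overlapping CD59 promoters that hold the same match) against 7.66% of all. The C/EBP motif TTGNGNAA matched 1 of 11, another CD59 promoter, against 12.4%, and the NF-kB motif matched 0 of 11 against 5.91%. A match shows that these letters are present and does not show that a factor binds.

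Levels of the members differed by over 4 orders of magnitude in untreated cells. The 3 membrane regulators dominated: CD59, which blocks the last step of membrane attack complex assembly, held 77.6% of all member counts over the 9 libraries, CD46, a cofactor for factor I, 15.9%, and CD55, which speeds the decay of convertases, 5.85%. Divided by the length of the longest protein-coding transcript in GENCODE v29, CTRL levels were 131 CPM per kilobase for CD59, 58.9 for CD46 and 26.6 for CD55. The remaining members were far lower, with 1.22 CPM per kilobase for C1R, 0.827 for CFB, 0.549 for CFI, 0.145 for C1S, 0.103 for SERPING1 and 0.0083 for C3. Neighbours in this order did not overlap between the 3 CTRL libraries, apart from C1S (0.129 to 0.156) and SERPING1 (0.0587 to 0.149). The same order was found with the median transcript length, which raised CD59 to 1351 CPM per kilobase and CFB to 2.52. The annotation used for the counts is not given in the sources used here, so these levels are approximate.

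**Figure D1:**
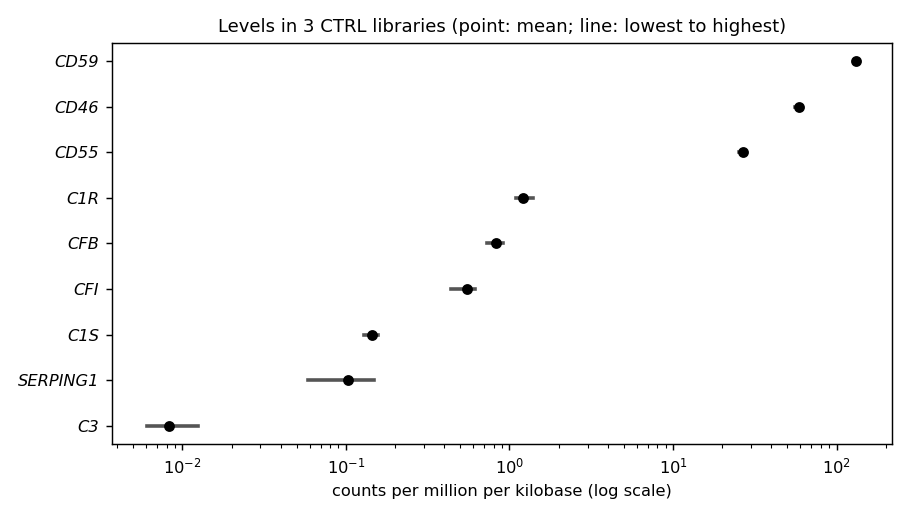
Levels of the 9 genes in the 3 CTRL libraries, as CPM per kilobase of the longest protein-coding transcript on a log axis, with points for means and lines from the lowest to the highest library. The membrane regulators CD59, CD46 and CD55 lie between 26.6 and 131, and the other 6 genes between 0.0083 and 1.22.

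After 24H of TMAO, no member passed the test in either direction. Of the 8 tested members, 4 were nominally higher and 4 lower, none at an unadjusted p under 0.05, and DESeq2 also called 0 members. The median log2 fold change of the tested members was -0.01, against -0.00042 over all tested genes. In this comparison 0% of all tested genes passed as higher and 0.095% as lower (edgeR's quasi-likelihood test, Benjamini-Hochberg adjusted p under 0.05), while 408 genes had an unadjusted p under 0.05 with a higher level and 659 with a lower one. The 24H libraries of every tested member overlapped with the CTRL libraries. The intervals were narrow for the abundant genes and wide for the rare ones: the 95% interval of the fold change was 0.94 to 1.09 for CD59 and 0.45 to 2.12 for SERPING1.

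After 48H, CFB was the 1 member that passed, as higher. Of the 8 tested members 6 were nominally higher and 2 lower, and 3 were higher (CFB, CFI and CD46) and 1 lower (CD55) at an unadjusted p under 0.05, against 13.2% and 12.6% of all tested genes. By adjusted p, 5.13% of all tested genes passed as higher and 5.29% as lower, and 51% were nominally higher. The median log2 fold change was 0.31 for the 8 tested members and 0.0040 over all tested genes. The 0.31 lies between the values of C1R (0.24) and C1S (0.37), which did not pass. CD46, CD55 and CD59, with the most counts, had log2 fold changes of 0.11, -0.13 and -0.08. The members were chosen with earlier results of these data known, so the medians are descriptions and no test of the set. The 48H libraries lay above all CTRL libraries for 4 tested members (CFB, C1S, CFI and CD46) and below them for 1 (CD55), against 14.7% and 13% of all tested genes. In bulk RNA, fewer cells expressing a gene and less RNA per cell cannot be told apart.

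**Figure D2:**
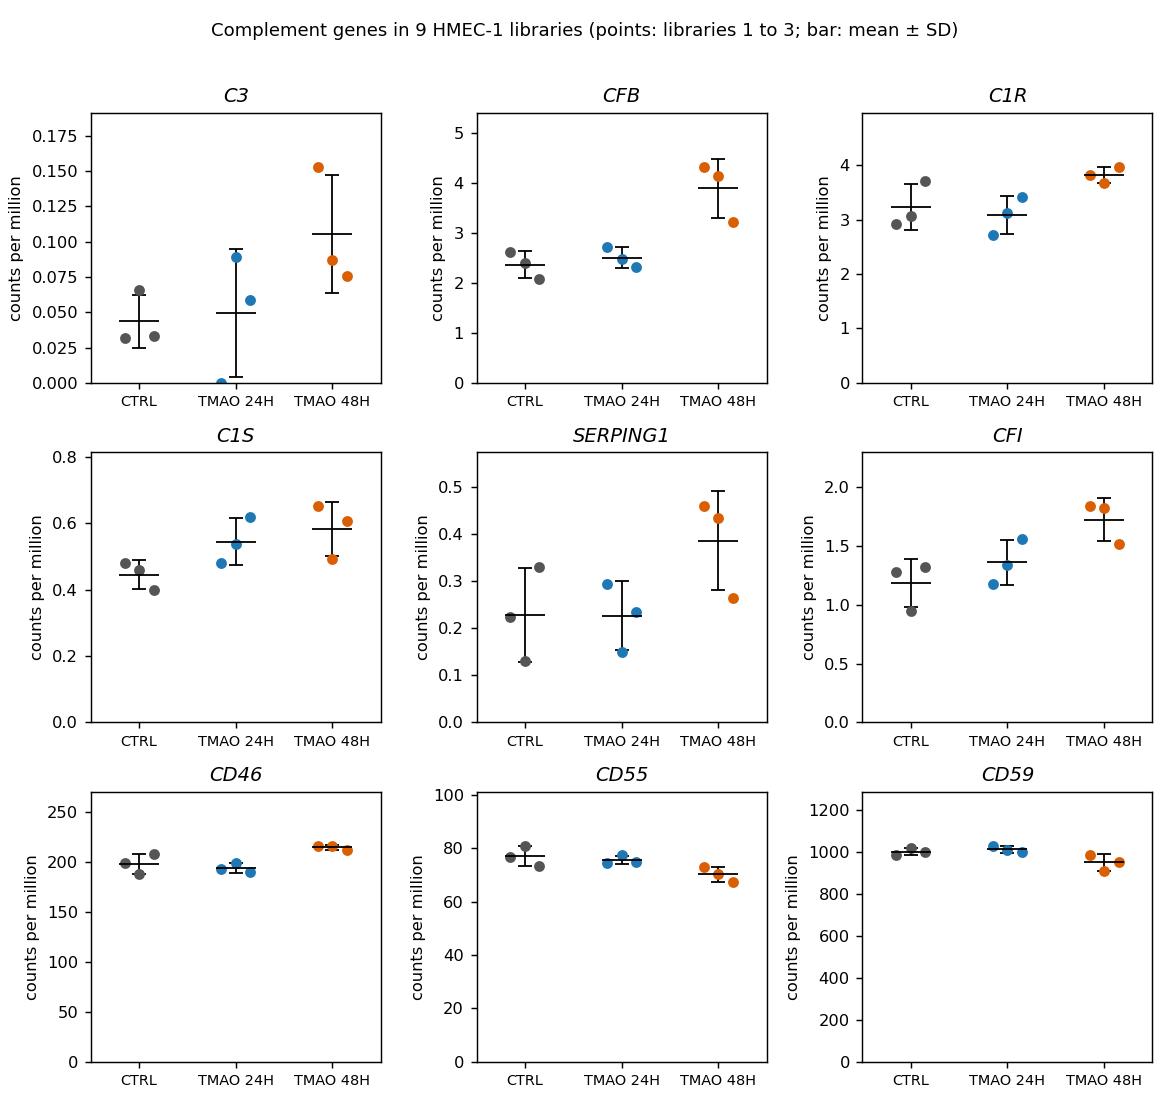
CPM of the 9 genes in each library, in 9 panels with axes that start at 0, where points are libraries 1 to 3 from left to right, and black bars show the mean ± SD (n = 3). CFB in the 3 TMAO 48H libraries sits between 3.22 and 4.32, above all 6 other libraries, while the fold changes of CD46, CD55 and CD59 at 48H over CTRL are 1.08, 0.912 and 0.948.

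CFB, the protease of the alternative pathway, was covered by 82, 73 and 63 counts in CTRL replicates 1 to 3, by 74, 83 and 79 at 24H and by 113, 143 and 85 at 48H. In normalised units these were 2.62, 2.39 and 2.09 CPM in CTRL, 2.73, 2.48 and 2.33 at 24H, and 4.32, 4.14 and 3.22 at 48H. CTRL and 24H overlapped, and each 48H library was higher than all 6 others. The level rose from 2.37 ± 0.27 CPM (SD, n = 3) in CTRL to 3.89 ± 0.59 (SD, n = 3) at 48H, a fold change of 1.64 (95% interval 1.30 to 2.08), a log2 fold change of 0.72 ± 0.16 (SE) with an adjusted p of 0.0124. At 24H the level was 2.51 ± 0.20 CPM (SD, n = 3), a log2 difference from CTRL of 0.08 ± 0.16 (SE).

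The call of CFB at 48H was made in 5 of 6 fits that each left out 1 library, and was lost without TMAO 48H replicate 2 (log2 fold change 0.67, adjusted p 0.0612). A requirement of at least a 1.4-fold change did not remove it. The lowest of the 48H libraries for CFB, replicate 3, was also the one that stood apart in some epithelial genes. KRT5, KRT14, EPCAM and CDH1 summed to 8.74 CPM there and to 55.6 to 100.2 CPM in the other 8 libraries. The other epithelial markers, KRT8 and KRT18, ran from 45.9 to 59.7 and from 547.8 to 573.5 CPM over the 48H libraries. Without TMAO 48H replicate 3, CFB had a log2 fold change of 0.84 and an adjusted p of 0.00648.

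C3 was at the edge of detection, with 1, 2 and 1 counts in CTRL, 0, 3 and 2 at 24H, and 4, 3 and 2 at 48H. Over summed counts the ratio of 48H to CTRL was 2.38 with a 95% interval of 0.663 to 10.6 (exact conditional interval, counting error only), so a difference was not detectable at this depth. No direction can be given for the substrate of the CFB convertase.

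The initiating proteases of the classical pathway did not pass. C1R, which activates C1s, had 2.91, 3.08 and 3.71 CPM in CTRL, 2.73, 3.13 and 3.41 at 24H and 3.83, 3.68 and 3.97 at 48H. The highest CTRL library lay inside the 48H range, and the log2 fold change at 48H was 0.24 ± 0.14 (SE, adjusted p 0.307). C1S, which cleaves C4 and C2, rested on 12 to 21 counts per library. Its 48H libraries (0.492 to 0.651 CPM) lay just above CTRL (0.397 to 0.480), with a log2 fold change of 0.37 ± 0.31 (SE, adjusted p 0.486).

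C1R has a second row in the table, C1R-2, as do 54 symbols in all. Which locus or copy the second row stands for is not known here, so the values of C1R are uncertain. The row named C1R held 32.6% to 47.3% of the counts of both. C1R-2 was 5.27 ± 1.00 CPM (SD, n = 3) in CTRL, 4.68 ± 0.33 at 24H and 6.18 ± 0.11 at 48H. The sum of both rows was 8.51 ± 0.58 CPM in CTRL, 7.77 ± 0.60 at 24H and 10.01 ± 0.07 at 48H (SD, n = 3 each). Summed, the log2 difference of 48H from CTRL was 0.23 ± 0.09 (SE, adjusted p 0.122), and that of 48H from 24H 0.36 ± 0.09 (adjusted p 0.0282), which passed. The sum was formed after the data had been seen.

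Of the soluble inhibitors, neither passed. CFI, the protease that degrades C3b and C4b, had 1.28, 0.949 and 1.32 CPM in CTRL, 1.18, 1.34 and 1.56 at 24H and 1.84, 1.82 and 1.51 at 48H. All 48H libraries exceeded all CTRL libraries, whereas the 24H libraries overlapped with both groups. The fold change at 48H was 1.46 (95% interval 1.07 to 1.99), a log2 fold change of 0.54 ± 0.21 (SE, adjusted p 0.116). SERPING1, the inhibitor of C1r and C1s, had 4 to 10 counts per CTRL library and 7 to 15 at 48H, and its groups overlapped. Its log2 fold change of 0.76 was as large as that of CFB but had an SE of 0.48 and an adjusted p of 0.350.

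The membrane regulators, which had the most counts, had the smallest fitted differences of the 8 tested members at 48H. CD46 was at 199.3, 188.0 and 207.9 CPM in CTRL, 192.7, 199.1 and 189.6 at 24H, and 216.1, 215.7 and 211.9 at 48H. The 48H libraries lay above the other 6, by a fold change of 1.08 (95% interval 1.01 to 1.15) over CTRL (log2 fold change 0.11 ± 0.04, SE, adjusted p 0.110). CD55 was at 76.7, 80.8 and 73.3 CPM in CTRL, 74.4, 77.4 and 75.0 at 24H, and 73.0, 70.4 and 67.3 at 48H. Here the 48H libraries lay below the other 6, by a fold change of 0.912 (95% interval 0.850 to 0.979; log2 -0.13 ± 0.05, SE, adjusted p 0.0937). CD59 was at 1001 ± 16.1 CPM in CTRL, 1011 ± 15.8 at 24H and 949.2 ± 40.0 at 48H (SD, n = 3 each), and its CTRL and 48H libraries overlapped (log2 -0.08 ± 0.05, SE, adjusted p 0.340).

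**Figure D3:**
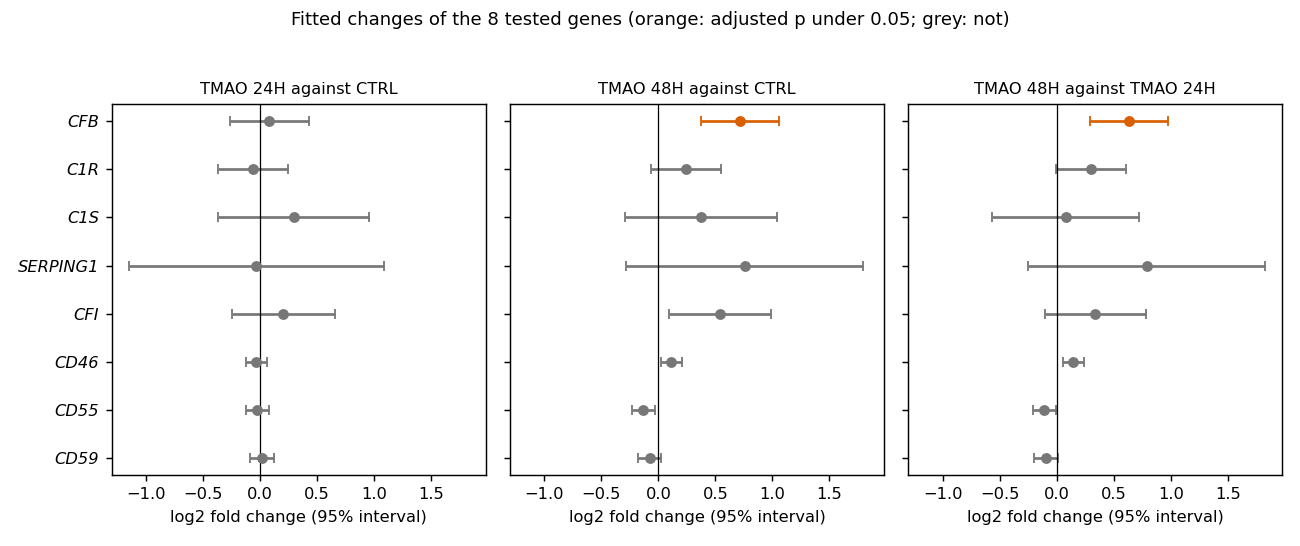
Fitted log2 fold changes of the 8 tested genes with 95% intervals in 3 comparisons; orange marks an adjusted p under 0.05. CFB is orange at 48H against CTRL (0.72) and at 48H against 24H (0.64), SERPING1 and C1S have the widest intervals, and the intervals of all 8 genes at 24H against CTRL include 0.

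Between the treated groups, 48H against 24H, the 1 member that passed was again CFB, with a log2 difference of 0.64 ± 0.16 (SE, adjusted p 0.0265) and no overlap of libraries. Over all genes 3.77% passed as higher and 3.76% as lower. This difference was called in 2 of 6 fits that left out 1 library, and was lost without TMAO 24H replicate 2 (adjusted p 0.0836) or replicate 3 (0.109) and without TMAO 48H replicate 1 (0.0795) or replicate 2 (0.108). Without TMAO 24H replicate 1, the library rich in ribosomal RNA, its log2 difference was 0.70 (adjusted p 0.0425). CD46 had a log2 difference of 0.15 ± 0.04 (SE) with an adjusted p of 0.0546. CD46 passed in 2 of 15 alternatives, with DESeq2 (0.0218) and in a fit of the treated groups alone (0.0460). It passed in 0 of 6 fits that left out 1 library, and its adjusted p reached 0.189 over the alternatives. CD55 was lower by a log2 of -0.11 ± 0.05 (SE, adjusted p 0.207). The comparisons share libraries with each other, so their values are given side by side and are not independent.

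Among 52 other complement genes, 17 were tested and 17 had no count in any library, among them the C1q subunits C1QA, C1QB and C1QC. At 24H none passed. At 48H 1 passed as higher and 2 as lower, beside 5.13% and 5.29% of all tested genes, and the median log2 fold change over the 17 was -0.05. C2, which supplies the protease of the classical and lectin pathway convertase and is the counterpart of factor B there, was the gene that rose. It had 1.28, 1.08 and 1.69 CPM in CTRL, 1.24 to 1.79 CPM at 24H, and 2.49, 2.75 and 2.23 at 48H. The 48H libraries did not overlap with the others, and the log2 fold change over CTRL was 0.88 ± 0.21 (SE, adjusted p 0.0184).

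In RefSeq, CFB lies next to C2 on the same strand, with no gene wholly between them and 422 bases from the end of C2 to the start of CFB. Whether reads of the one can be counted for the other is not known here. The 2 C2 promoters in RefSeq held no match to any of the 4 motifs. The call of C2 at 48H was made in 3 of 6 fits that left out 1 library, and was lost without CTRL replicate 1 (adjusted p 0.0653), CTRL replicate 2 (0.0856) or TMAO 48H replicate 2 (0.0839). Against 24H, C2 had a log2 difference of 0.76 ± 0.21 (SE, adjusted p 0.0442), which was called in 1 of 6 such fits, without TMAO 24H replicate 2. Without each of the other 5 libraries its adjusted p lay between 0.0501 (TMAO 48H replicate 3) and 0.170 (TMAO 24H replicate 3). This difference was also lost with the replicate number as a block (adjusted p 0.0953), with DESeq2 (0.0611), with the legacy fit (0.0676) and without an expression filter (0.0531).

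THBD and CD93 fell at 48H. THBD encodes thrombomodulin, an endothelial anticoagulant receptor that also promotes the inactivation of C3b, and CD93 is a C-type lectin receptor of endothelial and myeloid cells that was once described as a receptor for C1q. THBD was at 80.0, 82.5 and 73.9 CPM in CTRL and 67.9, 63.2 and 68.1 at 48H, a log2 fold change of -0.25 ± 0.06 (SE, adjusted p 0.0153), and was called in 3 of 6 fits that left out 1 library. It was lost without CTRL replicate 1 (0.0546), CTRL replicate 2 (0.0758) or TMAO 48H replicate 2 (0.0792). CD93 was at 271.8, 264.5 and 240.4 CPM in CTRL and 205.3, 221.2 and 221.1 at 48H, a log2 fold change of -0.26 ± 0.05 (SE, adjusted p 0.00597). CD93 was also lower at 48H than at 24H, by a log2 of -0.32 ± 0.05 (SE, adjusted p 0.00147). The 7 endothelial markers that passed as lower at 48H had log2 fold changes of -0.33 (ROBO4) to -0.18 (ERG). The other 4 did not pass and had log2 fold changes of -0.14 (TEK), -0.15 (CLDN5), 0.09 (VWF) and 0.15 (ESAM). The part of this in the values of THBD and CD93 was not tested.

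**Figure D4:**
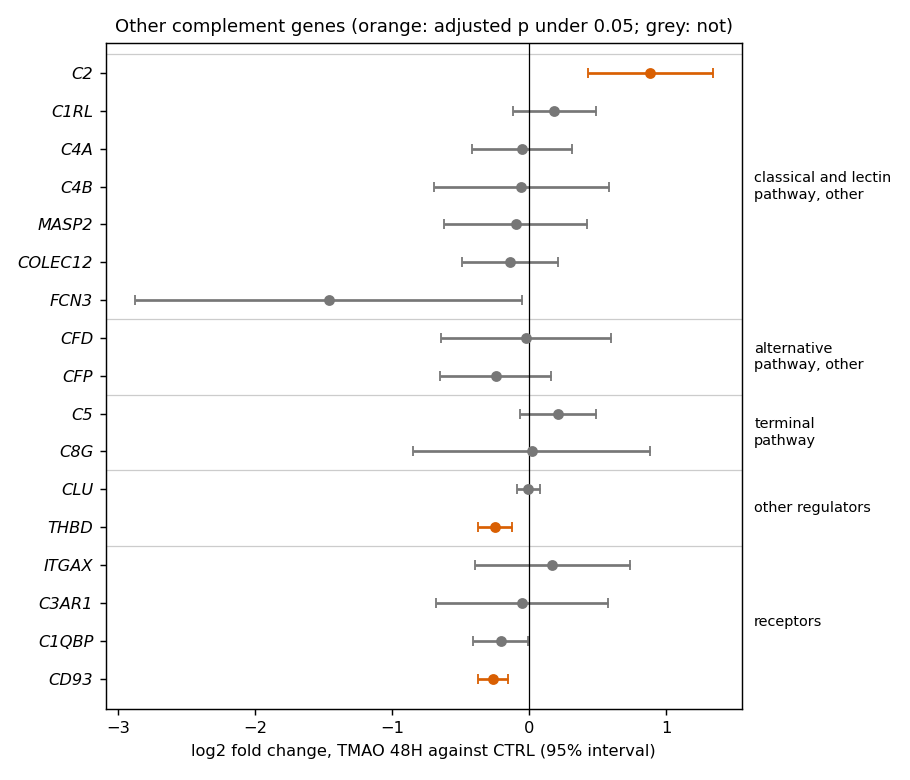
Log2 fold changes at 48H against CTRL with 95% intervals for the 17 other complement genes that were tested, grouped by role; orange marks an adjusted p under 0.05. C2 (0.88) lies to the right, and THBD (-0.25) and CD93 (-0.26) to the left of 0.

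C4A and C4B, near-identical copies whose reads cannot be separated with certainty, and the fluid-phase regulator CLU were measured but did not pass. CLU, a clusterin gene expressed at 195.0 CPM in CTRL, had a log2 fold change of -0.0049 ± 0.04 (SE) at 48H.

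Of 14 genes known to regulate complement transcription, all 14 were tested and none passed at 24H. At 48H 1 passed, as higher, and 10 of the 14 were nominally higher, beside 5.13% and 51% of all tested genes. That gene was IL6R. It was at 11.9, 13.8 and 12.2 CPM in CTRL, 14.1, 13.0 and 13.5 at 24H, and 18.3, 16.8 and 17.0 at 48H, where all libraries lay above the others. IL6R, the receptor of interleukin-6, rose from 12.7 to 17.4 CPM on average (log2 0.46 ± 0.08, SE, adjusted p 0.00305). Against 24H, 2 of the 14 passed, both as higher at 48H, and 11 were nominally higher, beside 3.77% and 51.2% of all tested genes. Those that passed were IL6R (log2 0.36 ± 0.08, SE, adjusted p 0.0126) and IRF9 (0.32 ± 0.06, SE, adjusted p 0.00599), a transcription factor of interferon signalling. Over CTRL, IRF9 had a log2 fold change of 0.19 ± 0.06 (SE, adjusted p 0.0606) and did not pass. It passed in 1 of 15 alternatives, without TMAO 48H replicate 1 (0.0247), and its adjusted p reached 0.196. The call of IL6R against 24H was lost without TMAO 24H replicate 2 (0.0596) or replicate 3 (0.0517).

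Among 12984 tested genes with a mean of at least 1 CPM, NAMPT and PPT1 were among the 3 whose log2 CPM followed CFB most closely over the 9 libraries, with Pearson r of 0.989 and 0.976. These are descriptions over 9 libraries that share their groups and were chosen as the highest of many. C2 had an r of 0.801 with CFB. The differences of NAMPT and PPT1 were smaller than that of CFB. At 48H NAMPT, an enzyme of NAD synthesis, differed from CTRL by a log2 of 0.09 ± 0.04 (SE, adjusted p 0.150) and PPT1, a lysosomal thioesterase, by 0.17 ± 0.04 (SE, adjusted p 0.0116).

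**Figure D5:**
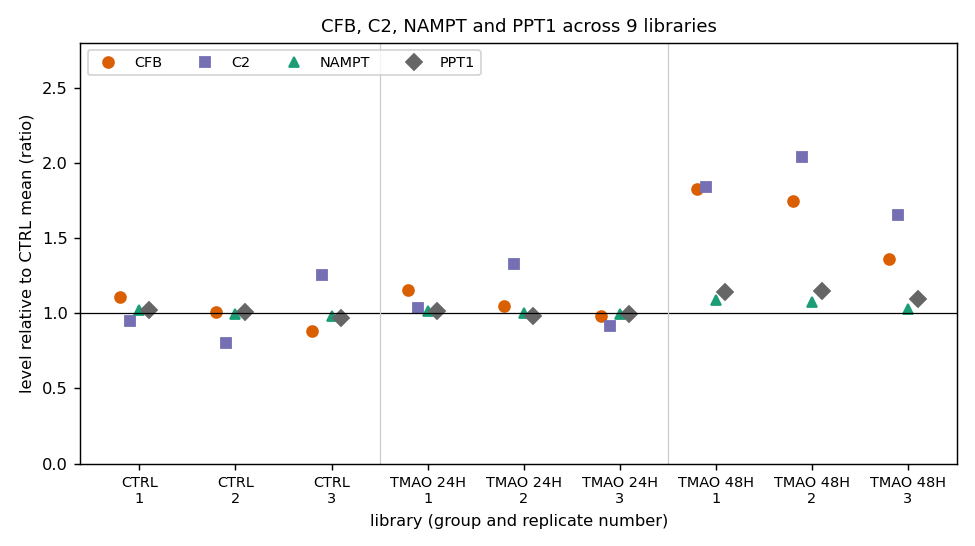
Levels of CFB, C2, NAMPT and PPT1 in each of the 9 libraries, as a ratio to the mean of the 3 CTRL libraries (1 on the axis, which starts at 0). CFB reaches 1.36 to 1.83 and C2 1.65 to 2.04 in the TMAO 48H libraries, whereas NAMPT and PPT1 stay under 1.2.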

How the data were processed

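HMEC-1 RNA was sequenced in 9 libraries (CTRL, TMAO 24H and TMAO 48H, 3 each, grouped by their labels). The authors ran nf-core RNAseq (pipeline version 3.6), and the deposited values are estimated counts per gene that had not been normalised. The submitters' processing notes name Trim Galore. The quantifier, genome build and annotation are not given in the sources used here.

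Values were rounded, and genes with low counts were removed by filterByExpr of edgeR 4.0.16 (R 4.3.3). After TMM scaling, the quasi-likelihood model was fitted to the 9 libraries together, with the newer form of glmQLFit. P-values were adjusted over 14740 genes by Benjamini-Hochberg, and a gene passed at an adjusted p under 0.05. Standard errors were obtained from the log2 fold change and its F value. The smallest p that an exact permutation test of 3 against 3 libraries can give is 0.1. Total counts of 25205756 to 36927373 per library set the precision, and intervals on summed counts cover counting error only. The scripts were tested on simulated data.

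The members and gene lists were chosen with earlier results of these data known. All 9 members were described. Other complement genes and known regulators were named where they passed, and the rest were counted, apart from C4A, C4B, CLU, the C1q genes and the markers, which were named after their values had been seen. Genes most like a member that passed were ranked by Pearson r of log2 CPM. Some genes of these lists and rankings are not reported here, and counts over the lists leave them out. Promoters came from RefSeq, GRCh38.p14.

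The alternatives were DESeq2 1.42.0, RLE scaling, testing without an expression filter or with a minimum of 10 counts in each library, fitting only the groups compared, the legacy form of glmQLFit, a block for the replicate number, at least a 1.4-fold change, removal of ribosomal RNA genes, leaving out each library in turn, promoters of the 250 bases before the start alone and, added after the data were seen, C1R summed with its second row.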

Additional observations from a re-analysis of the deposited data

Results flagged for a closer look

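CFB differed between the treated groups, with a log2 difference of 0.64 (48H minus 24H, adjusted p 0.0265 by edgeR). CFB was higher in 3 of 3 libraries at 48H than in any library at 24H. Both groups were compared with the same pooled CTRL libraries, so this is a difference between groups in which time in culture and treatment cannot be told apart.

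A difference between 48H and 24H also passed for other genes named above. The log2 differences of those higher at 48H were 0.76 for C2, 0.32 for IRF9, 0.36 for IL6R, 0.51 for VWF, 0.54 for ACTA2 and 0.18 for PPT1, with adjusted p-values by edgeR of 0.0442, 0.00599, 0.0126, 0.00112, 0.0124 and 0.0129 in that order. Those of the genes lower at 48H were -0.32 for CD93, -0.22 for PECAM1, -0.59 for COL1A1 and -1.06 for COL1A2. Their adjusted p-values were 0.00147, 0.0426, 3.07e-05 and 3.26e-06. Of the 11 endothelial markers, 6 passed as lower and 1, VWF, as higher, beside 3.76% and 3.77% of all tested genes. PECAM1 apart, the lower ones were ROBO4 (log2 -0.34, adjusted p 0.00114), KDR (-0.26, 0.0137), TIE1 (-0.22, 0.0181), ERG (-0.21, 0.0176) and TEK (-0.21, 0.0193). Groups of 3 libraries were too small for the test of single outlying libraries.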

How the results depend on the processing

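The number of members that passed at 24H against CTRL was 0 under all alternatives, and at 48H against CTRL it was 1 under all of them apart from leaving out 1 library, where it ranged from 0 to 1 (0 without TMAO 48H replicate 2). For 48H against 24H it was 1, and became 2 with DESeq2 and with only the groups compared (CFB and CD46), and 2 with C1R and its second row summed (CFB and C1R). Leaving out 1 library gave 0 to 1 for this comparison. The cause was not tested.

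Signs changed only when 1 library was left out and only for values that did not pass. At 24H against CTRL, the log2 fold change of C1R then ranged from -0.141 to 0.0499, that of SERPING1 from -0.307 to 0.324, that of CD46 from -0.0712 to 0.00428 and that of CD55 from -0.0564 to 0.0108. At 48H against 24H, that of C1S ranged from -0.0106 to 0.198. SERPING1 did not pass the filter in every alternative, and DESeq2 gave no adjusted p for some rare members.

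With the replicate number as a block (replicate block), 0, 1 and 1 members passed at 24H, at 48H and between the treated groups, and C2 between the treated groups was the one named complement gene whose call was lost. Deviations of libraries with the same number correlated between -0.12 and 0.0908 over 9 pairs. Those of libraries with different numbers correlated between -0.0996 and 0.159 over 18 pairs. With so few libraries per group, these ranges cannot settle whether the numbers pair the libraries. Over all genes the block lowered the 48H calls against CTRL from 756 higher and 780 lower to 431 and 513, and a 1.4-fold minimum to 130 and 135. DESeq2 called 3 higher and 52 lower genes at 24H against CTRL. All 6 motif matches in member promoters lay in the 250 bases before the start. Depth limits C3, SERPING1 and C1S most.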
